A study of Mus musculus with 30 samples.

Results

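The ERVL and MaLR repeats of mouse sperm were taken as every feature of the sperm tables whose name begins with MT2, MTA to MTE, MT-int, ORR1, MERVL or MurERV. This gave 58 families, the same 58 in both tables, out of 3082 features (584 of them repeat families) in the table made 46 days after treatment and 16242 features (634 repeat families) in the table made 24 h after it. By name they fell into 6 MT2 LTRs, 2 MERVL internal regions, 2 MurERV4 internal regions, 20 MT families (MTA to MTE and MT-int) and 28 ORR1 families (ORR1A to ORR1G). A name ending in -int is the internal region of an element and the others are long terminal repeats (LTRs), so that 29 families were LTRs and 29 were internal regions. The MurERV4 families were taken by name alone, since the tables give no repeat class.

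Male C57Bl/6J mice, 3 months old at the start, had received intraperitoneal tesaglitazar (10 µg/kg, Tesa-inj) or its vehicle (Vehicle-inj) 2 times a week for 4 weeks. Tesaglitazar is a dual agonist of the nuclear receptors PPARα and PPARγ. Sperm that swam out of the cauda epididymis went through a somatic cell lysis step and were collected 46 days after the last injection (7 Tesa-inj and 7 Vehicle-inj libraries of total RNA depleted of ribosomal RNA) or 24 h after it (4 and 4 libraries of polyA-selected RNA). The study's text also gives a different sequencer, RNA input and preparer of the libraries for each time. Time after injection, library type and these differences therefore cannot be told apart. The labels do not state whether each library came from 1 animal. The study's text counts its n in animals, after outliers were removed, but does not tie libraries to animals, so p-values are read here as measuring only the spread between libraries.

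ERVL elements are endogenous retroviruses of class III. MERVL is the full-length mouse member, with MT2_Mm as its own LTR, and it is transcribed in a burst in the 2-cell embryo, where its LTRs act as promoters of host genes. MaLRs are the related non-autonomous elements, which lack the retroviral genes. Their MT and ORR1 LTRs, MTA among them, provide promoters and first exons to many transcripts of the oocyte, and an MTC LTR is the promoter of the short oocyte form of Dicer1. In male germ cells, repeats are held down by DNA methylation, by KAP1 (Trim28) with histone methyltransferases, and by PIWI proteins with their piRNAs. A family count sums the reads assigned to all copies of a family, those inside introns and untranslated regions of genes included, so it does not say which copies were transcribed. The length behind each count is not in the tables, so counts of different families are given as shares of reads and not as relative expression.

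Total estimated counts ran from 4538102 to 13513816 per library at 46 days and from 15337589 to 27709990 at 24 h. At 46 days the 5 most abundant features took most of these counts in every library but Vehicle-inj replicate 14. Outside these features, the libraries held between 158820 (Tesa-inj replicate 2, library KG8-02) and 7119414 counts (Vehicle-inj replicate 14), and the scaling factors of the trimmed mean of M values (TMM) ran from 0.0981 to 8.15 in those 2 libraries. Counts over the 58 families ran from 3742 to 200168 per library at 46 days and from 445889 to 755166 at 24 h. In KG8-02, 38 of the 58 families had more than 20 counts, against 51 in KG8-12 and 52 to 58 in the other libraries of 46 days. Levels below are CPM, the counts of a feature scaled by TMM and by library size. All 58 families passed the filter on low counts in both tables.

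At 46 days, ERVL and MaLR families stood below the Vehicle-inj level in Tesa-inj sperm, within the spread between libraries and by an amount that depended on the scaling. The log2 fold change was below 0 for 56 of 58 families, against 54% of all 2866 features tested and 531 of 567 repeat families. Its median was -0.31 over the 58 families, -0.25 over all repeat families and -0.025 over all features. Under library totals all 58 families were below 0, with a median of -1.80 beside -1.09 over all features, and 24 had an unadjusted p under 0.05, against 206 of 2866 features. With TMM over the repeat families 41 were below 0, with a median of -0.076 beside 0.48 over all features, and 0 had an unadjusted p under 0.05, against 249 features. The quasi-likelihood test of edgeR, with p-values adjusted over all features by the Benjamini-Hochberg method, put no family under an adjusted p of 0.05 and 0% of features, and the smallest adjusted p of a family was 0.998, for ORR1C2-int. The exact test of edgeR put 14 of the 2866 features under an adjusted p of 0.05, with 0 families among them. Without Tesa-inj replicate 12, the exact test put 1 of 2966 features and 0 families there. At an unadjusted p under 0.05 the quasi-likelihood test with all 14 libraries gave 0 of 58 families, against 5.3% of all features. DESeq2 and edgeR's exact test also gave 0 families at that unadjusted level, against 135 and 190 of 2866 features, and limma voom gave 6 families against 165 features. Leaving out Tesa-inj replicate 4 gave 3 families against 224 of 2983 features. No family had groups that did not overlap, against 0% of features for lower and 0.0349% for higher in Tesa-inj.

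All 14 labelled libraries were used above, while the study's figure legend counts fewer Tesa-inj samples than are labelled and its text does not name the library left out. Tesa-inj replicate 12 (library KG8-12) was left out as an alternative because it stood apart in earlier results of these data, and whether it is the library the study left out is not known. Without it, all 58 families were below 0 under TMM over all features. Their median was -0.40, beside -0.37 for all 577 repeat families and -0.038 for all 2966 features then tested. Of these features 57.5% were below 0. ORR1C2-int alone then had an unadjusted p under 0.05 (log2 fold change -0.70 ± 0.31 SE), against 3.1% of all features. No family passed the adjusted threshold. Groups that did not overlap were found for 0 families, and for 0 (lower) and 2 (higher) of the 2966 features. Under library totals without KG8-12, 1 family had an unadjusted p under 0.05, against 48 of 2966 features, where there were 24 families with all 14 libraries. With TMM over the repeat families and without KG8-12, 42 of 58 families were below 0. Their median was then -0.061, beside 0.59 for all features.

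Under TMM over all features, each family group had a median below 0. With TMM over the repeat families, MERVL-int was at 0.16 and MERVL_2A-int at 0.0075, so the direction of the MERVL group turned. All 20 MT families were below 0, with a median of -0.30 (without KG8-12, -0.38). Of the ORR1 families 27 of 28 were below 0, with a median of -0.35 (without KG8-12, 28 of 28 and -0.41). Of the MT2 LTRs 5 of 6 were below 0, with a median of -0.22 (without KG8-12, 6 of 6 and -0.38). Both MERVL families were below 0, with a median of -0.17 (without KG8-12, -0.38), and so were both MurERV4 families, with a median of -0.33 (without KG8-12, -0.47). Internal regions had a median of -0.34 and LTRs one of -0.29 (without KG8-12, -0.42 and -0.37). These differences between family groups were not tested.

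Most families shared their lowest library, while the highest library differed between families. Summed over 57 families without ORR1A3, the level was 3221 ± 1318 CPM (SD, n = 7) in Tesa-inj and 3976 ± 942 CPM (n = 7) in Vehicle-inj libraries, and without KG8-12 it was 3121 ± 1415 CPM (n = 6) in Tesa-inj. The lowest sums were 1199 CPM in Tesa-inj replicate 1 and 1596 CPM in Tesa-inj replicate 11, followed by 2497 CPM in Vehicle-inj replicate 14. The other 5 Tesa-inj libraries lay between 3219 and 4578 CPM, inside the range of the other Vehicle-inj libraries (3179 to 5100 CPM). The same 3 libraries had the highest sums of late spermatid and sperm markers, a match picked after the values were seen. The marker sums were 1077 CPM in Tesa-inj replicate 1, 1114 CPM in Tesa-inj replicate 11 and 1043 CPM in Vehicle-inj replicate 14. The other 11 libraries had 466 to 991 CPM. TMM factors of the 3 libraries were 1.06, 4.84 and 8.15, and those of the others 0.0981 to 3.30. The cause of the match was not tested. Tesa-inj replicate 1 was the lowest of all 14 libraries for 54 of the 58 families and Tesa-inj replicate 11 for the remaining 4. The highest library was more often Vehicle-inj replicate 9 (22 families), Tesa-inj replicate 2 (11), Vehicle-inj replicate 7 (9) or Tesa-inj replicate 12 (7) than any other. Leaving out Tesa-inj replicate 1 moved the median log2 fold change to -0.16, and leaving out Tesa-inj replicate 11 moved it to -0.18.

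MERVL-int, the internal region with the viral genes, ran from 10.4 through a median of 28.2 to 46.6 CPM in Tesa-inj and from 17.3 through 26.0 to 36.5 CPM in Vehicle-inj libraries. Its LTR MT2_Mm ran from 4.01 through 10.1 to 22.1 CPM and from 6.78 through 11.0 to 13.8 CPM. KG8-12 was the highest library for both, and the groups overlapped. The log2 fold change was -0.095 ± 0.29 (SE) for MERVL-int and -0.060 ± 0.33 for MT2_Mm, and without KG8-12 it was -0.35 ± 0.29 and -0.43 ± 0.29. With TMM over the repeat families it was 0.16 for MERVL-int and 0.21 for MT2_Mm. Counts of MERVL-int were 2.56 ± 0.287 times those of MT2_Mm in Tesa-inj (SD, n = 7; without KG8-12, 2.64 ± 0.225, n = 6) and 2.61 ± 0.266 times in Vehicle-inj libraries (n = 7). MERVL_2A-int had a log2 fold change of -0.24 ± 0.28 (without KG8-12, -0.41 ± 0.29, and with TMM over the repeat families, 0.0075). Leaving out each library in turn put MERVL-int between -0.35 and 0.046 and MT2_Mm between -0.43 and 0.093, with the high end in both from leaving out Tesa-inj replicate 1. MERVL_2A-int was at -0.099 without Tesa-inj replicate 1 and -0.13 without Tesa-inj replicate 11.

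MTC ran from 81.1 through 252 to 309.9 CPM in Tesa-inj and from 158 through 268 to 336 CPM in Vehicle-inj libraries, with a log2 fold change of -0.29 ± 0.29 (SE; without KG8-12, -0.36 ± 0.32). MTA_Mm, the youngest of the MT LTRs, ran from 44.3 through 117 to 148 CPM and from 85.5 through 118 to 150.4 CPM, with a log2 fold change of -0.20 ± 0.25 (without KG8-12, -0.33 ± 0.26). For both LTRs, Tesa-inj replicates 1 and 11 (105 CPM for MTC and 60.0 CPM for MTA_Mm in replicate 11) lay below all Vehicle-inj libraries, and the other Tesa-inj libraries lay inside the Vehicle-inj range. MTD took the most counts of the 57 families without ORR1A3, 11.8% ± 0.744 of them in Tesa-inj and 11.7% ± 0.376 in Vehicle-inj libraries (SD, n = 7), and its log2 fold change was -0.27 ± 0.30 (SE; without KG8-12, -0.37 ± 0.33). Without Tesa-inj replicate 1 the log2 fold changes of MTC, MTA_Mm and MTD were -0.15, -0.072 and -0.13, and without Tesa-inj replicate 11 they were -0.17, -0.10 and -0.15. With TMM over the repeat families MTA_Mm was at 0.055, MTC at -0.058 and MTD at -0.065.

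The 6 families with the smallest p were ORR1C2-int, ORR1B2-int, MTB_Mm-int, MTC-int, MurERV4_19-int and ORR1B1. ORR1C2-int ran from 2.79 through 8.28 to 11.3 CPM in Tesa-inj and from 6.60 through 10.9 to 13.8 CPM in Vehicle-inj libraries, with a log2 fold change of -0.54 ± 0.29 (SE). ORR1B2-int had a log2 fold change of -0.55 ± 0.32 (without KG8-12, -0.67 ± 0.36) and MTB_Mm-int one of -0.48 ± 0.29 (without KG8-12, -0.55 ± 0.32). The values were -0.42 ± 0.26 for MTC-int, -0.32 ± 0.20 for MurERV4_19-int and -0.47 ± 0.29 for ORR1B1 (without KG8-12, -0.49 ± 0.29, -0.40 ± 0.21 and -0.47 ± 0.33). Of the other families with the most counts in their group, MT2A had -0.36 ± 0.31 and MurERV4-int -0.34 ± 0.31 (without KG8-12, -0.42 ± 0.35 and -0.54 ± 0.33). Without Tesa-inj replicate 1, MTB_Mm-int was at -0.32, MT2A at -0.22 and MurERV4-int at -0.17, and without Tesa-inj replicate 11 MT2A was at -0.23 and MurERV4-int at -0.20. For all of these the groups overlapped. With TMM over the repeat families, MurERV4_19-int was at 0.063.

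**Figure D1:**
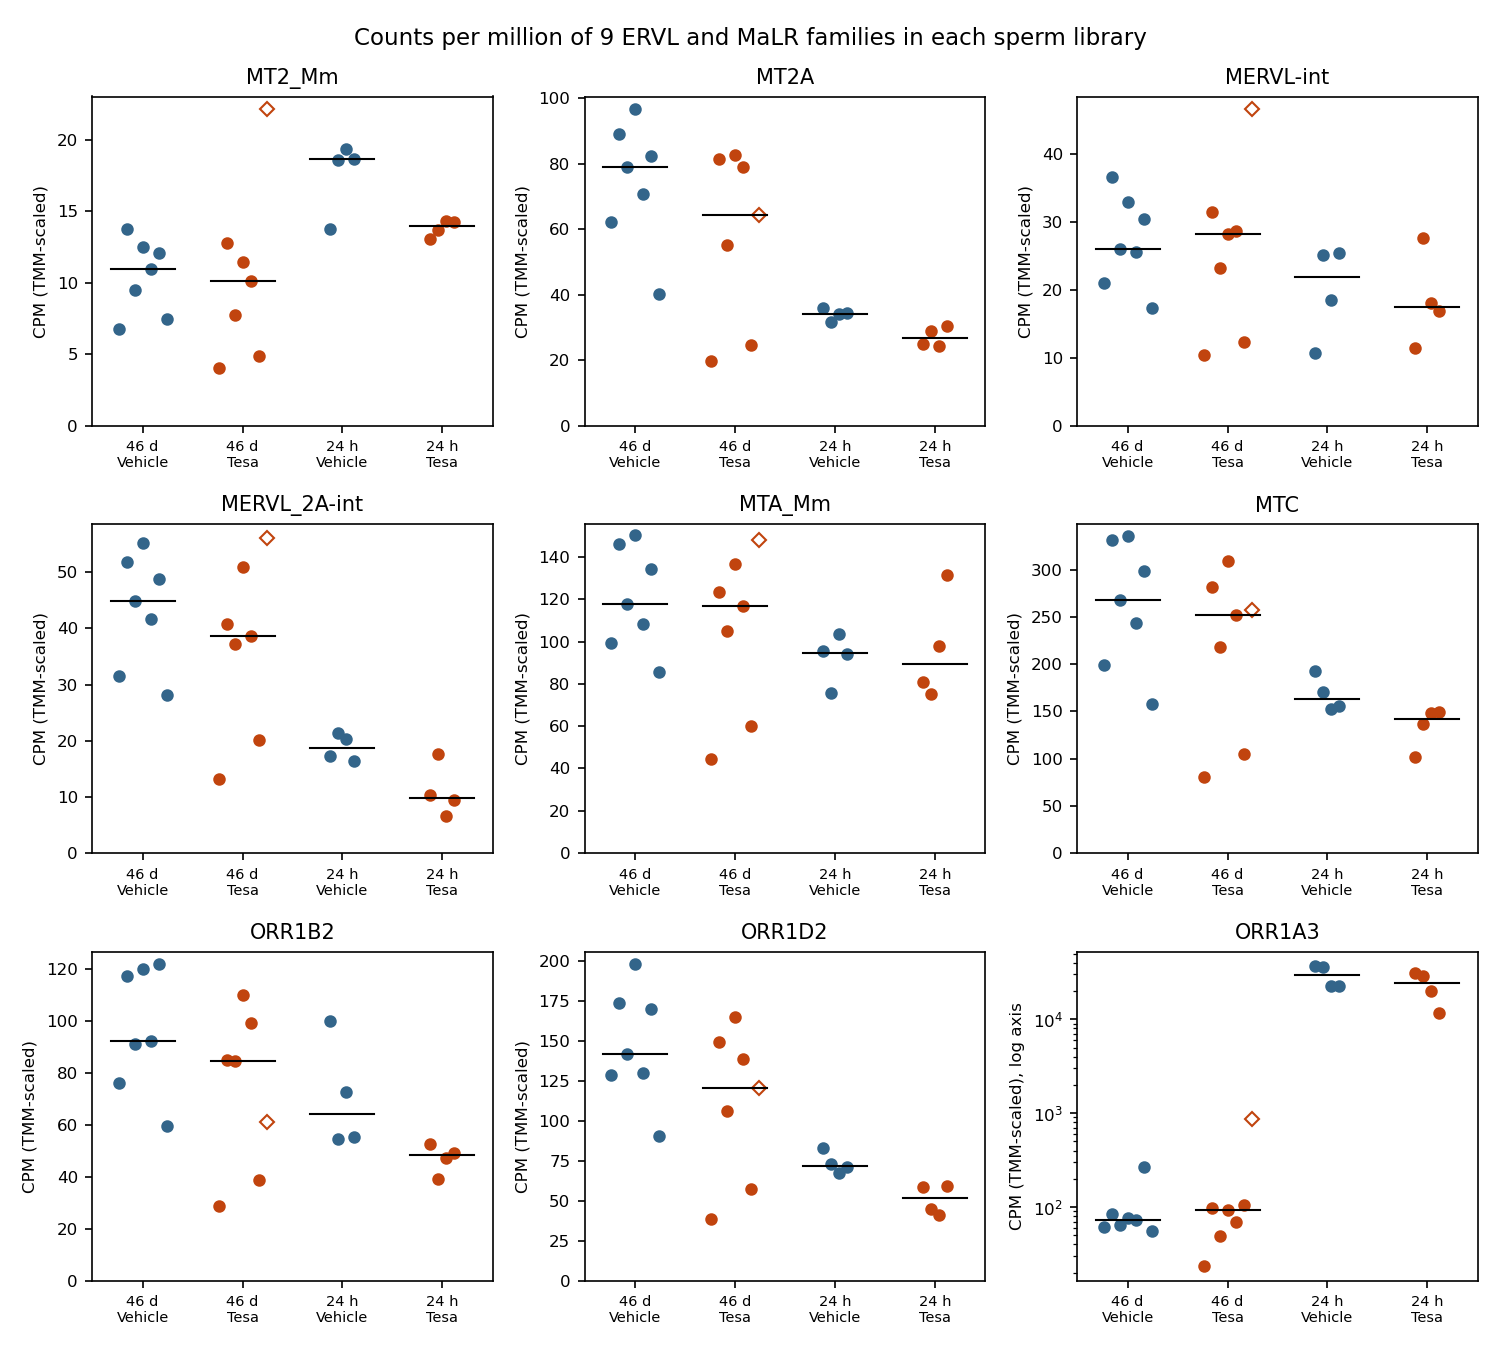
Level in CPM (TMM-scaled, linear axes from 0 except the log axis of ORR1A3) of 9 families in each sperm library, by time and treatment. Each point is a library, bars are group medians and the open diamond is KG8-12, which was the highest of the 14 libraries at 46 days for MERVL-int (46.6 CPM), MT2_Mm (22.1 CPM) and ORR1A3 (869.9 CPM).

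The 2 families not below 0 at 46 days were MT2B2 (0.0043, chosen here after its value was seen) and ORR1A3, an LTR of the youngest ORR1 group. The log2 fold change of ORR1A3 was 0.93 ± 0.68 (SE) with all libraries and -0.48 ± 0.43 without KG8-12, and it was 1.46 without Vehicle-inj replicate 13. The level was 869.9 CPM in KG8-12, between 23.9 and 104 CPM in the other 6 Tesa-inj libraries, 269.5 CPM in Vehicle-inj replicate 13 and between 56.3 and 85.4 CPM in the other 6 Vehicle-inj libraries. Its internal region, ORR1A3-int, added here after its value was seen, had a log2 fold change of -0.38 ± 0.28 (without KG8-12, -0.56 ± 0.30). Among library numbers 1 to 10 alone (5 Tesa-inj and 5 Vehicle-inj), ORR1A3 had a log2 fold change of -0.13 ± 0.31. With all 14 libraries and a term for library numbers 11 to 14 in the model it was 0.36. Library numbers 11 to 14 hold 2 libraries a group and were not fitted alone.

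Lars2, the gene of the mitochondrial leucyl-tRNA synthetase, was set beside ORR1A3. It was chosen for this comparison after its values were seen. At 46 days Lars2 had between 14027 and 30760 counts in library numbers 11 to 14 and between 771 and 2396 counts in numbers 1 to 10. It stood at 12157 CPM in KG8-12 and 2957 CPM in Vehicle-inj replicate 13, the 2 libraries highest for ORR1A3. The ratio of ORR1A3 to Lars2 counts ran from 0.0530 to 0.552 in Tesa-inj (0.0716 in KG8-12) and was 0.605 ± 0.405 in Vehicle-inj libraries (SD, n = 7). At 24 h the same ratio lay between 0.219 and 0.241 in Tesa-inj and between 0.207 and 0.251 in Vehicle-inj libraries. Lars2 was not alone in this. Mir6236, a microRNA gene likewise chosen after its values were seen, was also highest at 46 days in KG8-12 (368 CPM) and Vehicle-inj replicate 13 (43.4 CPM), against 3.90 to 37.8 CPM in the other 12 libraries. The ratio of ORR1A3 to Mir6236 counts ran from 2.31 to 13.2 at 46 days and from 0.679 to 0.998 at 24 h. Whether reads were shared between ORR1A3 and either gene was not tested.

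**Figure D2:**
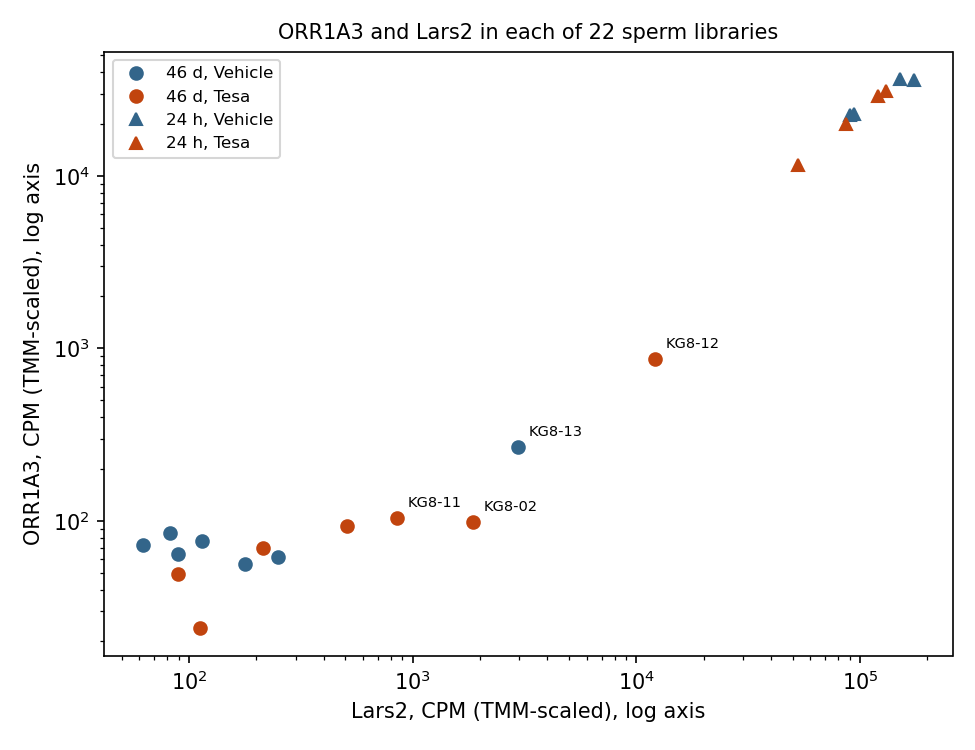
ORR1A3 against Lars2 in each of 22 sperm libraries, in CPM (TMM-scaled, both axes logarithmic), with circles for 46 days and triangles for 24 h. The 8 libraries of 24 h lie in the upper right, with ORR1A3 between 11540 and 36493 CPM, and KG8-12 (869.9 CPM) and Vehicle-inj replicate 13 (KG8-13, 269.5 CPM) stand above the other libraries of 46 days.

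At 24 h, ERVL and MaLR families also stood below the Vehicle-inj level in Tesa-inj sperm under TMM over all features of the table, with the same median as all repeat families. The log2 fold change was below 0 for 50 of 58 families, against 52.2% of all 13752 features tested and 430 of 542 repeat families. Its median was -0.32 over the 58 families, -0.32 over all repeat families and -0.023 over all features. When library totals replaced TMM, the 3 medians were -0.056, -0.082 and 0.19, and with TMM over the repeat families they were -0.0048, -0.0019 and 0.30. Under these 2 scalings 34 and 30 of the 58 families were below 0. The median of the families lay 0.30, 0.25 and 0.30 below that of all features under TMM, library totals and TMM over the repeat families. Without Tesa-inj replicate 1 the median of the families was -0.21, and without Vehicle-inj replicate 4 it was -0.18. The quasi-likelihood test put no family under an adjusted p of 0.05 and 0% of features.

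At an unadjusted p under 0.05, 3 of 58 families were lower in Tesa-inj at 24 h (ORR1D2, MERVL_2A-int and ORR1B2), against 1.75% of all features and 43 of 542 repeat families (7.93%). No family was higher at that level. In either direction, 372 of 13752 features had such a p. The count was 3 families against 377 features with edgeR's exact test, 4 against 492 with DESeq2 and 4 against 1022 with limma voom. It was 0 against 151 with library totals and 0 against 922 with TMM over the repeat families. It was 1 without Vehicle-inj replicate 2, Tesa-inj replicate 5 or Tesa-inj replicate 7 (322 of 14497, 293 of 14351 and 278 of 14010 features), and 7 without Tesa-inj replicate 3 (582 of 14296 features). The groups did not overlap, with all Tesa-inj libraries lower, for 5 of 58 families, against 1.95% of all features and 45 of 542 repeat families (8.3%). Under library totals this held for 0 of 58 families, against 79 of 13752 features (0.574%) and 4 repeat families.

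By family group at 24 h, all 6 MT2 LTRs were below 0 with a median of -0.43. Of the ORR1 families 26 of 28 were below 0 with a median of -0.37, and of the MT families 15 of 20 with a median of -0.22. Both MERVL families were below 0, and 1 of the 2 MurERV4 families was. LTRs had a median of -0.36 (27 of 29 below 0) and internal regions one of -0.19 (23 of 29). The SE of an LTR had a median of 0.24 and that of an internal region one of 0.38, and 7 internal regions but no LTR had a library with 20 counts or fewer. The difference between LTRs and internal regions was not tested.

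Among ORR1 LTRs, ORR1D2 stood at 82.7, 72.6, 67.1 and 70.9 CPM in Vehicle-inj replicates 2, 4, 6 and 8, and at 58.2, 44.8, 41.0 and 59.2 CPM in Tesa-inj replicates 1, 3, 5 and 7. Its groups did not overlap, and the log2 fold change was -0.53 ± 0.20 (SE). ORR1B2 stood at 54.3, 72.8 and 55.1 CPM in Vehicle-inj replicates 4, 6 and 8, higher still in replicate 2, and at 52.7, 39.1, 47.2 and 49.1 CPM in Tesa-inj libraries, with a log2 fold change of -0.58 ± 0.24. Here too the groups did not overlap, and without Vehicle-inj replicate 2 the log2 fold change was -0.35. ORR1D1 lay between 81.8 and 115 CPM in Vehicle-inj and between 63.0 and 79.5 CPM in Tesa-inj libraries, with a log2 fold change of -0.40 ± 0.20 (-0.26 without Vehicle-inj replicate 4). For ORR1C1 and ORR1C2 the groups overlapped, with log2 fold changes of -0.58 ± 0.26 and -0.53 ± 0.25.

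Among ERVL families, MERVL_2A-int stood at 17.2, 21.4, 20.3 and 16.5 CPM in Vehicle-inj and at 10.3, 17.6, 6.55 and 9.43 CPM in Tesa-inj libraries, with a log2 fold change of -0.78 ± 0.32 (SE). The groups overlapped through Tesa-inj replicate 3. MERVL-int ran from 10.6 through a median of 21.8 to 25.4 CPM in Vehicle-inj and from 11.3 through 17.4 to 27.7 CPM in Tesa-inj libraries, with a log2 fold change of -0.11 ± 0.35 and overlapping groups. Leaving out each library in turn put it between -0.37 (without Tesa-inj replicate 3) and 0.082 (without Tesa-inj replicate 1). MT2_Mm stood at 13.8, 18.6, 19.4 and 18.7 CPM in Vehicle-inj and at 13.1, 13.7, 14.3 and 14.3 CPM in Tesa-inj libraries, with a log2 fold change of -0.35 ± 0.21. Vehicle-inj replicate 2 lay among the Tesa-inj libraries.

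Of the other MT2 LTRs, MT2A lay between 31.5 and 36.0 CPM in Vehicle-inj and between 24.2 and 30.3 CPM in Tesa-inj libraries, and its groups did not overlap (log2 fold change -0.33 ± 0.18 SE). MT2B1 had a log2 fold change of -0.60 ± 0.28 with overlapping groups (-0.32 without Vehicle-inj replicate 2), and MT2B, the MT2 LTR with the most counts, one of -0.18 ± 0.18 (-0.11 without Vehicle-inj replicate 4). MurERV4-int had a log2 fold change of 0.058 ± 0.34, between -0.095 (without Tesa-inj replicate 1) and 0.21 (without Tesa-inj replicate 7) with each library left out. The other MurERV4 family, MurERV4_19-int, given here after its value was seen, lay between 3.35 and 12.4 CPM in Vehicle-inj and between 2.17 and 6.36 CPM in Tesa-inj libraries, with a log2 fold change of -0.73 ± 0.54 and overlapping groups. The high end was Vehicle-inj replicate 2, and without that library the log2 fold change was -0.21 ± 0.52.

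Among MT LTRs, MTC stood at 193, 171, 153 and 155 CPM in Vehicle-inj and at 101, 137, 148 and 149 CPM in Tesa-inj libraries. Its groups did not overlap, by a gap of 149 to 153 CPM, and the log2 fold change was -0.33 ± 0.21 (SE; -0.20 without Tesa-inj replicate 1). MTA_Mm stood at 95.5, 75.8, 104 and 94.2 CPM in Vehicle-inj and at 80.8, 75.4, 97.7 and 132 CPM in Tesa-inj libraries, with a log2 fold change of 0.062 ± 0.23, and its groups overlapped. It was -0.12 without Tesa-inj replicate 7 and 0.16 without Tesa-inj replicate 3. MTD had a log2 fold change of -0.37 ± 0.22, with Tesa-inj replicate 3 (252 CPM) inside the Vehicle-inj range.

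ORR1A3 took 83.8% to 93.8% of all counts of the 58 families at 24 h, against 1.48% to 18.6% at 46 days. It stood at 36493, 36019, 22784 and 22577 CPM in Vehicle-inj and at 31058, 29189, 19891 and 11540 CPM in Tesa-inj libraries at 24 h. The groups overlapped, and the log2 fold change was -0.36 ± 0.45 (SE; -0.14 without Tesa-inj replicate 7 and -0.23 without Vehicle-inj replicate 2 or 4). Without this family, the 57 other families summed to 2668 ± 277 CPM in Vehicle-inj and 2126 ± 73.1 CPM in Tesa-inj libraries (SD, n = 4). Each Tesa-inj sum (2070 to 2231 CPM) was below each Vehicle-inj sum (2458 to 3077 CPM). Before TMM, as CPM of all counts, the same sums ran from 1698 to 3509 in Tesa-inj and from 2060 to 2824 in Vehicle-inj libraries, and they overlapped.

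**Figure D3:**
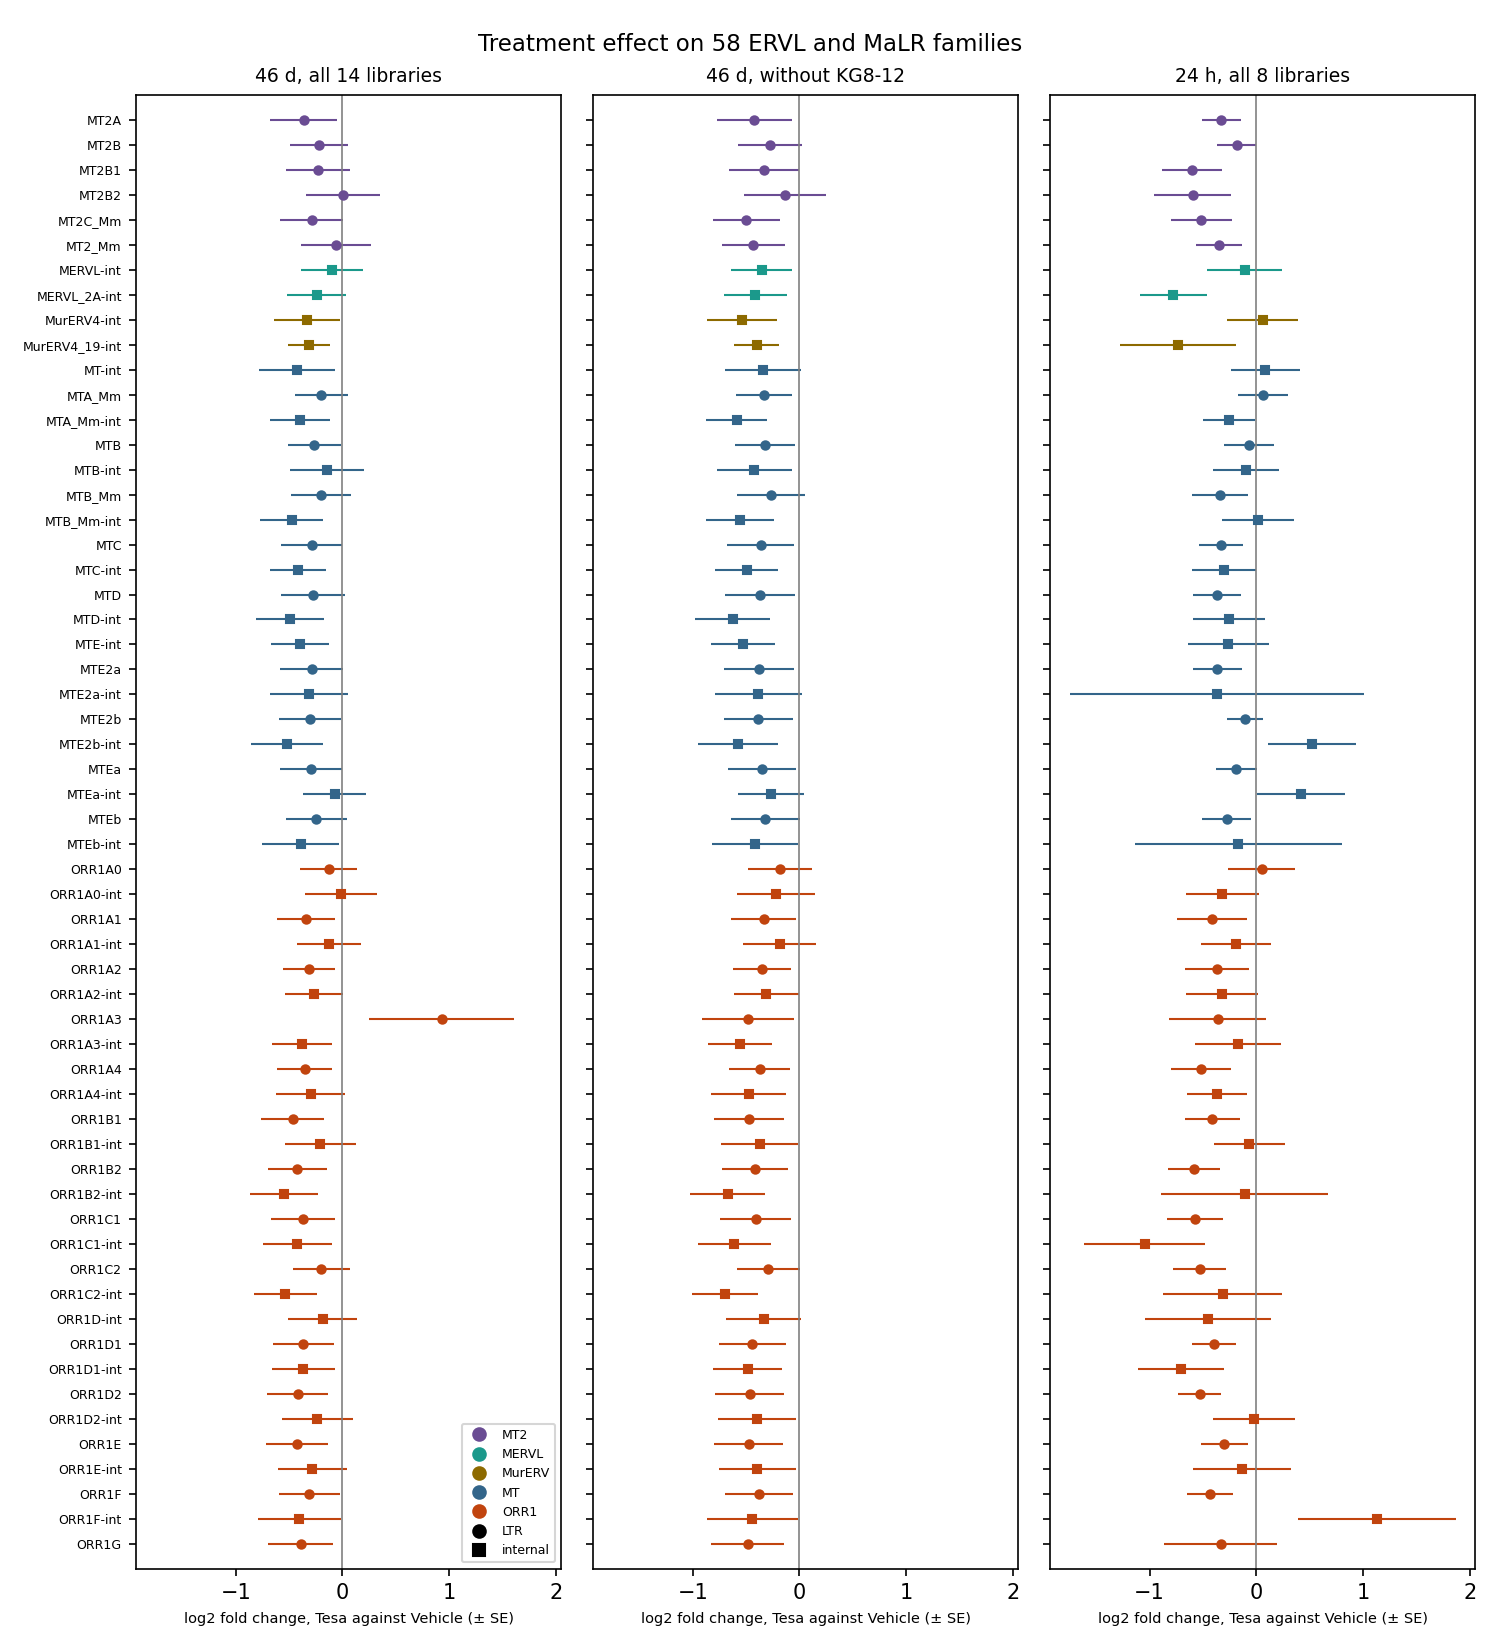
Log2 fold change of Tesa-inj against Vehicle-inj with its SE for each of the 58 families, at 46 days with all 14 libraries, at 46 days without KG8-12 and at 24 h with 8 libraries. Circles are LTRs and squares internal regions, colored by family group, and ORR1A3 moves from 0.93 to -0.48 when KG8-12 is left out.

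The effect at 46 days was set against that at 24 h in 1 model over both tables, with TMM over the features they share. Under this scaling 57 of 58 families were below 0 at 46 days and 38 of 58 at 24 h, with medians of -0.36 and -0.11, against 1313 and 1399 of 2680 features with medians of 0.0062 and -0.029. The effect at 46 days minus that at 24 h was below 0 for 48 of 58 families, with a median of -0.27, against 1137 of 2680 features with a median of 0.089. The quasi-likelihood test of edgeR put no family and 0% of the 2680 features under an adjusted p of 0.05. At an unadjusted p under 0.05 there were 2 of 58 families, against 4.74% of features. These 2 were ORR1F-int (-1.68 ± 0.61 SE for the log2 effect at 46 days minus that at 24 h) and MTE2b-int (-1.28 ± 0.49). Both are internal regions chosen here after their values were seen. Their smallest counts in a library were 4 and 38 at 24 h, and 4 and 3 at 46 days. There were also 2 families without KG8-12, against 136 of 2680 features, and 2 with repeat families alone, against 17 of 507. Library totals gave 1, against 31 of 2680 features, with a median difference of -1.73 over the families and -1.05 over all features. Across the 58 families, the log2 fold changes at the 2 times had a Spearman correlation of -0.00126 (n = 58), given as a description, since families of a table share their libraries.

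The makeup of the 57 families without ORR1A3 is given by treatment group at each time. At 46 days MT families took 44.2% ± 1.10 of their counts in Tesa-inj and 43.4% ± 0.583 in Vehicle-inj libraries (SD, n = 7), and ORR1 families 46.8% ± 1.79 and 48.1% ± 0.661. At 24 h the shares of MT families were 41.2% ± 4.06 and 38.8% ± 3.93 (n = 4), and those of ORR1 families 51.6% ± 4.72 and 53.6% ± 4.46. Internal regions took 14.6% ± 0.969 of the counts in Tesa-inj (without KG8-12, 14.2% ± 0.298, n = 6) and 14.4% ± 0.480 in Vehicle-inj libraries at 46 days, and 12.8% ± 3.06 and 12.0% ± 2.58 at 24 h. ORR1A2, named here after its values were seen, took 14.5% ± 3.63 in Vehicle-inj libraries at 24 h and 4.88% ± 0.275 at 46 days, 2 tables that were scaled apart and differ in library type. Over the 57 families, Vehicle-inj levels at the 2 times had a Spearman correlation of 0.934 (n = 57), a description over families that differ in copy number and length.

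Other repeats were counted for comparison. At 46 days, 48 of 48 other ERVL and MaLR families (MLT1, MLT2, ERVL, LTR16 and the like) were below 0 with a median of -0.30, as were 30 of 31 IAP and ETn families (median -0.34) and 25 of 27 SINE families (median -0.11). Of 6 young LINE-1 families 1 was below 0 (median 0.62). Without KG8-12 these medians were -0.45, -0.42, -0.22 and 0.26. At 24 h the medians were -0.37 over 38 other ERVL and MaLR families, -0.20 over 27 IAP and ETn families, -0.22 over 27 SINE families and -0.33 over 6 young LINE-1 families. The differences between these repeat groups were not tested.

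Of 61 listed genes, 34 were tested at 24 h and 5 at 46 days. The list joined genes known to act on these elements or on repeat silencing with genes of the 2-cell state, such as Usp17la. At either time the quasi-likelihood test gave 0 genes under an adjusted p of 0.05 and 0 at an unadjusted p under 0.05 (0 also without KG8-12), where 2.71% of all features at 24 h and 5.3% at 46 days had such an unadjusted p, so lists this short could hold 0 at those shares. At 24 h, 18 were below 0 and 16 above, against 52.2% of all features below 0, with a median of -0.0087. At 46 days 3 were below 0, Usp17la among them, and 2 above. Trim28, which recruits silencing enzymes to endogenous retroviruses, stood at 26.2 ± 3.38 CPM in Tesa-inj and 25.1 ± 3.13 CPM in Vehicle-inj libraries (SD, n = 4), with a log2 fold change of 0.061 ± 0.20 (SE). Ehmt2, a histone methyltransferase that acts on ERVL elements, had a log2 fold change of -0.024 ± 0.23, and Dicer1 one of -0.13 ± 0.36. Zmym2, a repressor of MERVL, had the smallest p of the 34 genes. It stood at 6.90 ± 2.72 and 11.6 ± 2.55 CPM, with a log2 fold change of -0.74 ± 0.36. Others lay on both sides of 0, such as Morc2a (-0.81 ± 0.43) and Suv39h1 (1.08 ± 1.39), named here after their values were seen. Of the activators of the 2-cell state, Duxf3 was listed at 24 h but missed the filter on low counts, and Zscan4a to Zscan4f were in neither table.

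Markers of late spermatids and sperm were all present, 16 of 16 in both tables, led by Prm2 at 46 days and Odf1 at 24 h. Their sum ran from 466 to 1114 CPM at 46 days (KG8-12, 549 CPM) and from 4152 to 13328 CPM at 24 h. At 24 h, 12 of 12 leukocyte markers were also present, led by Cd52, with sums of 1797, 1248, 2107 and 1585 CPM in Vehicle-inj and 2151, 1284, 2238 and 2622 CPM in Tesa-inj libraries. Most of each sum was Cd52, which the epididymal epithelium also makes. Without Cd52 the sums were 381, 219, 179 and 207 CPM in Vehicle-inj and 262, 212, 182 and 240.2 CPM in Tesa-inj libraries. Of the epididymal markers 8 of 13 were present, led by Spink8, with sums from 1464 to 3381 CPM, and of the blood markers 4 of 5, led by Hba-a2, with sums from 53.5 to 269.9 CPM. Smooth muscle and stroma markers were present for 8 of 8, led by Col1a1, with sums from 45.2 to 185 CPM, and of 6 testicular somatic markers only Sox9 was, at no more than 4.50 CPM. None of these markers had an unadjusted p under 0.05, and their part in the levels of the repeat families was not tested. At 46 days no marker of these 5 other lists was in the table, so other cells could not be assessed there. In such bulk samples, fewer cells of a type and less RNA per cell cannot be told apart.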

How the data were processed

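The deposited values are estimated counts per gene or repeat family, which the authors made with Salmon (version 0.11.2 in the submitters' processing notes) after read trimming, on a transcriptome index that included repeat families (GRCm38). They were rounded to whole numbers. Each table was scaled by TMM over all its features, and a feature was kept when its count passed 20 in 80% or more of the smallest group (6 libraries at 46 days, 4 at 24 h). Kept features went into the quasi-likelihood test of edgeR (edgeR 4.0.16, run in R 4.3.3), and p was adjusted over all of them by the Benjamini-Hochberg method. The SE is the log2 fold change divided by the square root of F. The code was tested on simulated data.

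Families named are the 6 with the smallest p in each comparison, the family with the most counts in each group, MERVL-int, MT2_Mm, MTA_Mm, MTC, ORR1A3, and those whose groups did not overlap. The few others are marked where they appear as named after their values were seen. Members and lists were chosen with earlier results of these data known. The lists were genes that act on these elements or silence repeats, and markers of 6 cell types. Each table held only features above a filter not stated in the study's text. Alternatives covered scaling, filter, test (DESeq2 1.42.0, limma 3.58.1), features fitted and libraries. Serum small RNA was not used here.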

Additional observations from a re-analysis of the deposited data

Results flagged for a closer look

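At 46 days, ORR1A3 in library KG8-12 (Tesa-inj replicate 12) stood at 869.9 CPM, far from the other 6 Tesa-inj libraries (23.9 to 104 CPM), and in Vehicle-inj replicate 13 at 269.5 CPM, far from the other 6 Vehicle-inj libraries (56.3 to 85.4 CPM). At 24 h, MTD in Vehicle-inj replicate 4 stood at 289.6 CPM, above the other 3 Vehicle-inj libraries (246 to 248 CPM), and MT2_Mm in Vehicle-inj replicate 2 at 13.8 CPM, below the other 3 (18.6 to 19.4 CPM). Each was marked because its gap to the nearest library, divided by the range of its group, passed Dixon's critical value. In all, 4 of 86 groups were so marked, and chance alone marks about 1 in 20.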

How the results depend on the processing

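No alternative gave a family past an adjusted p of 0.05, at 46 days, at 24 h or in the difference between them (without KG8-12, with library totals and with repeat families alone). No paired analysis was possible because the treatment groups compared share no library numbers. Alternatives that leave out KG8-12 together with another choice, or with KG8-02, were added after seeing the data. The cause of each difference below was not tested.

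Counts of families lower at an unadjusted p under 0.05 are set beside all features fitted with such a p in either direction. At 46 days, library totals gave 24 families (206 of 2866 features) and a median log2 fold change of -1.80, with the median of all features at -1.09 (without KG8-12, 1 family, 48 of 2966 features and -1.68, with all features at -0.92). Limma voom gave 6 lower families (165 of 2866 features), and repeat families fitted alone gave 1 higher, ORR1A3 (22 of 567 repeat families). The exact test of edgeR without KG8-12 gave 1 lower family (129 of 2966 features). Leaving out each library in turn gave 0 to 3 lower families (3 without Tesa-inj replicate 4, with 224 of 2983 features), 49 to 58 families below 0 and medians from -0.43 to -0.16. Leaving out KG8-02 and KG8-12 together gave 0 lower families (111 of 3047 features), 58 below 0 and a median of -0.51. With TMM over the repeat families and all 14 libraries, 41 families were below 0, with a median of -0.076 and all features at 0.48. Without KG8-12 under that scaling, 42 were below 0, with a median of -0.061 and all features at 0.59.

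At 24 h, library totals gave 0 lower families (151 of 13752 features), 34 below 0 and a median of -0.056, and TMM over the repeat families 0 lower families (922 features), 30 below 0 and a median of -0.0048. Repeat families fitted alone gave 6 lower families (65 of 542 repeat families). Leaving out each library in turn gave 1 to 7 lower families (7 without Tesa-inj replicate 3, with 582 of 14296 features), 44 to 51 below 0 and medians from -0.42 to -0.18.

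Of 435 values for families named at 46 days, 412 kept their direction, and of 272 at 24 h, 262 did. ORR1A3 at 46 days changed to -0.55 with library totals, -0.39 with DESeq2, -0.18 with limma voom, -0.13 in library numbers 1 to 10 and, without KG8-12, to -0.58 (KG8-02 also left out), -0.47 (exact test) and -0.83 (library totals), and it ran from -0.48 to 1.46 with each library left out. With TMM over the repeat families ORR1A3 was at 1.10, and it did not change direction when KG8-12 was also left out under that scaling. With TMM over the repeat families at 46 days, MurERV4_19-int was at 0.063, MERVL_2A-int at 0.0075, MERVL-int at 0.16, MT2_Mm at 0.21 and MTA_Mm at 0.055, and without KG8-12 MurERV4_19-int was at 0.10, MERVL-int at 0.045, MT2_Mm at 0.014 and MTA_Mm at 0.024. With each library left out at 46 days, MERVL-int ran from -0.35 to 0.046 and MT2_Mm from -0.43 to 0.093. At 24 h, MERVL-int was at 0.074 and MT2B at 0.057 with library totals, at 0.19 and 0.14 with TMM over the repeat families, and MurERV4-int at -0.054 with limma voom. With each library left out at 24 h, MERVL-int ran from -0.37 to 0.082, MurERV4-int from -0.095 to 0.21 and MTA_Mm from -0.12 to 0.16.

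Depth limited the internal regions most. At 46 days 18 of 29 had a library with 20 counts or fewer, against 2 of 29 LTRs.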
